A study of Mus musculus with 12 samples.

Results

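The genes described here are the 3 D cyclins (Ccnd1, Ccnd2 and Ccnd3), 4 inhibitors of cyclin-dependent kinases (Cdkn1a, Cdkn1b, Cdkn1c and Cdkn2c) and the 3 members of the retinoblastoma family (Rb1, Rbl1 and Rbl2). They were taken by symbol, as all probe sets annotated to exactly 1 of these names, which gave 10 genes of 18193 on the array and 27 probe sets of 45101. The probe set with the highest mean log2 signal stands for each gene, and the others serve as a check.

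Expression was measured on Affymetrix mouse genome arrays, 4 for each of 3 segments of the embryonic tibia, from CD1 mice at embryonic day 15.5. The tissue was cut along the bone from its end to its middle. Zone I held resting and dividing chondrocytes, zone II the cells that were entering or had entered hypertrophy, and zone III the mineralized middle together with the oldest hypertrophic cells. The labels name no mutation and no treatment, the zones were separated by hand by their morphology, and the RNA of a zone was pooled within a litter, with 4 litters used as separate experiments. The arrays of a zone are lettered A to D.

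D cyclins are the regulatory subunits that activate Cdk4 and Cdk6 when a cell leaves G1, and these kinases phosphorylate the retinoblastoma proteins, which otherwise hold E2F transcription factors inactive and keep S phase genes off. INK4 proteins such as the product of Cdkn2c block Cdk4 and Cdk6, while the Cip/Kip proteins encoded by Cdkn1a, Cdkn1b and Cdkn1c bind a wider range of cyclin-kinase complexes. In the growth plate, columnar chondrocytes divide and then leave the cell cycle as they become hypertrophic, and mice without p57, the product of Cdkn1c, or without the 2 retinoblastoma relatives p107 and p130 have growth plates with disturbed chondrocyte exit from the cell cycle.

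The deposited values are linear signal intensities, scaled so that the trimmed mean was 150.0 on every array. They were taken to log2 and the 3 zones were fitted together with limma; a difference passed at a Benjamini-Hochberg adjusted p under 0.05, adjusted over the 22255 probe sets whose mean signal reached 50 in any zone. All 10 genes entered the test through the probe set that stands for them, Rbl2 by its signals in zones I and III alone, and 20 of the 27 probe sets did. Precision is limited by the 4 arrays a zone.

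Between zones II and I, 2 of the 10 genes rose (Cdkn1a and Rb1), 7 fell (all 3 D cyclins, Cdkn1b, Cdkn2c, Rbl1 and Rbl2) and Cdkn1c did not pass. Of the 11808 genes tested with 1 probe set each, 16% rose and 25.4% fell in the same comparison. At the next step, zone III against zone II, 4 genes rose (Ccnd1, Ccnd2, Rbl1 and Rbl2), Cdkn1c fell and 5 did not pass (5 rose with a block by array letter or by fluidics run, which added Ccnd3), beside 30.8% of all genes that rose and 22.7% that fell. Over both steps, zone III against zone I, 2 rose (Cdkn1a and Rb1), 4 fell (Ccnd1, Cdkn1b, Cdkn1c and Cdkn2c) and 4 did not pass, where 21.6% of all genes rose and 21.7% fell. The shares of all genes move with the scaling of the arrays. Of the genes that changed, 38.7% rose between zones II and I, 57.6% between zones III and II and 49.97% between zones III and I, whereas arrays centred on their medians gave 58.6%, 39.5% and 44.3%, and arrays centred on 100 probe sets of ribosomal protein genes gave 9.88%, 90.3% and 70.4%. The median difference of all genes was −0.09, 0.08 and −0.01 on the log2 scale in these 3 comparisons, 0.10, −0.16 and −0.07 with median centring, and −0.43, 0.64 and 0.20 with ribosomal centring. Each difference between zones II and I kept its sign with quantile normalization and with both centrings.

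**Figure D1:**
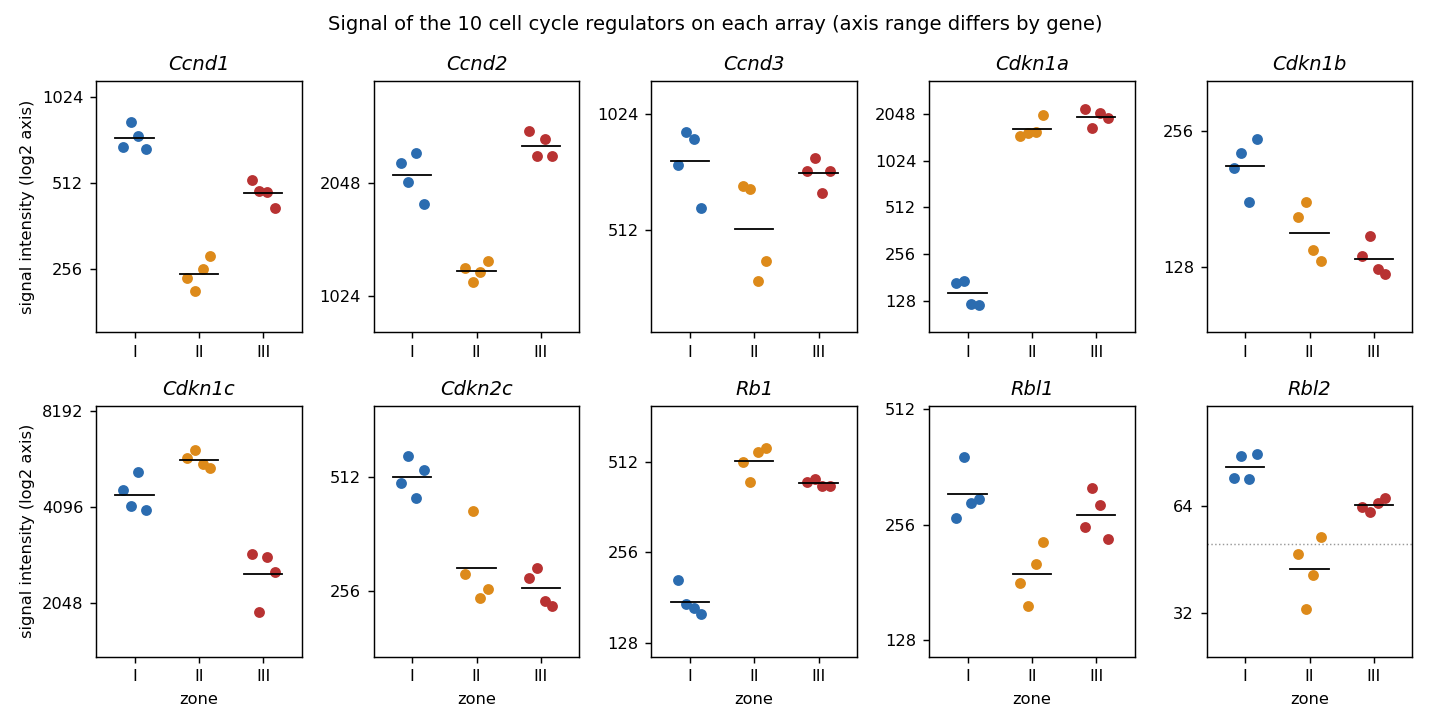
Signal intensity (vertical log2 axis, its range set for each gene) of the probe set that stands for each of the 10 genes in zones I (blue), II (orange) and III (red), where dots are the 4 arrays and lines the geometric mean; the dotted line in the Rbl2 panel marks a signal of 50. Ccnd1, Ccnd2, Rbl1 and Rbl2 were lowest in zone II, Cdkn1a and Rb1 were lowest in zone I, and Cdkn1c was lowest in zone III.

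Ccnd1 and Ccnd2 were lowest in zone II, and all 3 D cyclins fell there against zone I, Ccnd3 in a call lost under 12 of 24 alternatives. Ccnd1, the D cyclin induced by many mitogens (probe set 1448698_at), read 687, 837, 751 and 675 on the zone I arrays, 237, 214, 255 and 284 on the zone II arrays and 526, 480, 476 and 419 on the zone III arrays (arrays A to D). The 3 zones did not overlap, with zone I highest, zone III between and zone II lowest. Ccnd1 was thus 2.98-fold lower in zone II than in zone I (log2 difference −1.58 ± 0.12 SE; limma, adjusted p = 1.5e-06), 1.92-fold higher in zone III than in zone II (0.94 ± 0.12, adjusted p = 4.4e-05) and 1.55-fold lower in zone III than in zone I (−0.63 ± 0.12, adjusted p = 0.00132). In bulk tissue such as this, fewer cells of a type and less RNA per cell cannot be told apart.

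Ccnd2, a D cyclin with known roles in the ovary and in B cells (1434745_at), read 2313, 2061, 2460 and 1798 in zone I, 1216, 1115, 1185 and 1265 in zone II and 2807, 2406, 2673 and 2405 in zone III. Zone II was apart from both other zones, whose arrays overlapped. Ccnd2 was 1.79-fold lower in zone II than in zone I (log2 difference −0.84 ± 0.12 SE; limma, adjusted p = 1.5e-04) and 2.15-fold higher in zone III than in zone II (1.10 ± 0.12, adjusted p = 8.3e-06). Its difference between zones III and I was 0.26 ± 0.12, which did not pass (adjusted p = 0.0997), though it passed as a rise under 4 of 24 alternatives.

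Ccnd3, the third D cyclin gene (1415907_at), gave the least settled values of the 3. Its signal was 582 to 915 in zone I with a median of 817, 377 to 665 in zone II with a median of 538, and 638 to 783 in zone III with a median of 726. Both comparisons with zone II showed overlap, since arrays A and B of zone II read 665 and 653 while C and D read 377 and 424. The fall in zone II against zone I was 1.5-fold (log2 difference −0.59 ± 0.20 SE; limma, adjusted p = 0.0384). It no longer passed without array A, B or C of zone I, C or D of zone II, or A or D of zone III, with differences of −0.60 to −0.44 and adjusted p of 0.0506 to 0.107, nor with median centring (−0.40, adjusted p = 0.151). The difference between zones III and II was 0.48 ± 0.20 and did not pass (adjusted p = 0.0668). It passed under 6 of 24 alternatives, which were a block by array letter (adjusted p = 0.0444), a block by fluidics run (0.55, adjusted p = 0.0347), a fit with a mean-variance trend (adjusted p = 0.0421), ribosomal centring (1.03, adjusted p = 3.5e-04) and the fits without array A or B of zone II (0.61 and 0.60, adjusted p = 0.0295 and 0.0357).

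Other probe sets of the D cyclins were used as a check. Both other probe sets of Ccnd1 passed in all 3 comparisons in the same direction, at −1.30 and −1.08 between zones II and I and 0.57 and 0.59 between zones III and II. The 5 other tested probe sets of Ccnd2 all fell in zone II against zone I (−1.34 to −0.91) and all rose in zone III against zone II (1.18 to 1.63), and 1 of the 5 rose in zone III against zone I. The other tested probe set of Ccnd3 had signals near 50 and gave 0.33 between zones II and I, with no comparison past the test, so the fall of Ccnd3 rests on 1 probe set.

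**Figure D2:**
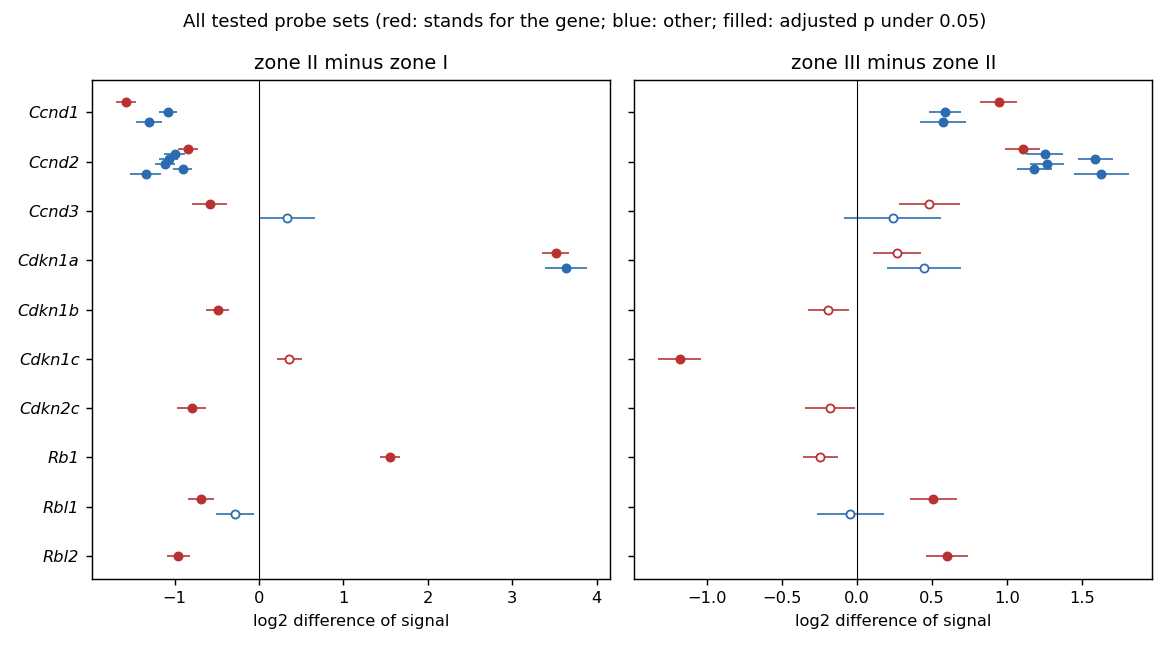
Log2 difference of signal (horizontal axis, ± SE) of the 20 tested probe sets of the 10 genes, zone II minus zone I (left) and zone III minus zone II (right); red marks the probe set that stands for the gene, blue the others, and filled points have an adjusted p under 0.05. All 3 probe sets of Ccnd1 and all 6 of Ccnd2 lie below 0 on the left and above 0 on the right, while the blue points of Ccnd3 and Rbl1 are open.

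The ratio of 2 D cyclins within an array does not change when all signals of the array are multiplied by 1 factor, as in both centrings, but it can change with quantile normalization. These ratios, and those given for the inhibitors and the retinoblastoma family, were chosen after the values were seen, and the 27 comparisons were tested by an exact permutation test (2-sided, 70 arrangements, smallest possible p = 0.0286, or 0.0454 after Benjamini-Hochberg adjustment over the 27). They are built from the same signals as the differences of single genes and add no independent support to them. The log2 ratio of Ccnd1 over Ccnd2 differed by −0.73 in zone II against zone I and by −0.89 in zone III against zone I, with no overlap of arrays in either comparison (adjusted p = 0.0454 for both, exact permutation test). The same ratio differed between zones III and II by −0.16 (exact permutation, adjusted p = 0.105), and by −0.56 with quantile normalization, where it passed (exact permutation, adjusted p = 0.0406). Set against Ccnd2, Ccnd1 was lower in zones II and III than in zone I.

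Cdkn1a, a Cip/Kip inhibitor, had the largest difference of the 10 genes both between zones II and I and between zones III and I. Cdkn1a encodes p21, which inhibits cyclin-kinase complexes and is a target of p53 (1424638_at). It read 166, 171, 122 and 121 in zone I, 1481, 1539, 1556 and 2011 in zone II and 2218, 1664, 2081 and 1939 in zone III. Zone I was far below the other zones, which overlapped. Cdkn1a was 11.4-fold higher in zone II than in zone I (log2 difference 3.51 ± 0.16 SE; limma, adjusted p = 2.6e-08) and 13.7-fold higher in zone III than in zone I (3.78 ± 0.16, adjusted p = 7.3e-09). The difference between zones III and II was 0.27 ± 0.16 (adjusted p = 0.186), although it passed with quantile normalization (0.56, adjusted p = 0.0102) and ribosomal centring (0.82, adjusted p = 0.00201). In order of the difference between zones II and I, Cdkn1a stood 32nd from the top of 11808 genes. Its other probe set gave 3.64 between zones II and I, 0.45 between zones III and II and 4.09 between zones III and I, and passed in the first and the last of these. The zone I mean of that probe set was 35.6, under 50. It was thus tested only through the zones where it is higher, and its folds against zone I have no settled size.

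Cdkn1c, which encodes p57 (1417649_at), fell at the later step. It read 4634, 4111, 5265 and 3995 in zone I, 5817, 6169, 5590 and 5408 in zone II and 2909, 1915, 2851 and 2563 in zone III. The 3 zones did not overlap, with zone II highest and zone III lowest. Cdkn1c was 2.27-fold lower in zone III than in zone II (log2 difference −1.18 ± 0.15 SE; limma, adjusted p = 2.7e-05) and 1.77-fold lower in zone III than in zone I (−0.82 ± 0.15, adjusted p = 6.6e-04). The fall against zone II was −1.43 with median centring and −0.63 with ribosomal centring, and passed with both. The difference between zones II and I was 0.36 ± 0.15 and did not pass (limma, adjusted p = 0.0715), but it passed under 4 of 24 alternatives. Among these were the fits without array C of zone I (0.44, adjusted p = 0.0453), without array B of zone III (0.36, adjusted p = 0.0342) and with median centring (0.54, adjusted p = 0.0141). It was 0.05 with quantile normalization and 0.01 with ribosomal centring. The study reported differential Cdkn1c expression in zones I and II by qRT-PCR and immunostaining, and no anticipated trend on its arrays. Cdkn1c has 1 probe set.

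Cdkn1b, which encodes p27 (1434045_at), fell at the early step. Its signal was 178 to 245 in zone I with a median of 220.3, 132 to 178 in zone II with a median of 152, and 123 to 150 in zone III with a median of 131. Neighbouring zones overlapped, and zones III and I did not. Cdkn1b was 1.41-fold lower in zone II than in zone I (log2 difference −0.49 ± 0.14 SE; limma, adjusted p = 0.0134) and 1.61-fold lower in zone III than in zone I (−0.69 ± 0.14, adjusted p = 0.00158). The call between zones II and I was lost with quantile normalization (−0.32, adjusted p = 0.113) and with median centring (−0.31, adjusted p = 0.121). The difference between zones III and II was −0.19 ± 0.14 (adjusted p = 0.267), and its sign depended on the scaling, at 0.36 with ribosomal centring. It passed as a fall under 2 of 24 alternatives, quantile normalization (−0.45) and median centring (−0.44). These are the settings in which the call between zones II and I was lost, so the step of the fall depended on the scaling.

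Within an array, the log2 ratio of Cdkn1a over Cdkn1c was higher at each step, by 3.16 in zone II against zone I, 1.45 in zone III against zone II and 4.60 in zone III against zone I (adjusted p = 0.0454 for each, exact permutation test). The ratio of Cdkn1b over Cdkn1c differed by −0.85 between zones II and I, 0.99 between zones III and II and 0.14 between zones III and I, and the first 2 passed (adjusted p = 0.0454, exact permutation test). With quantile normalization neither of these passed (−0.37 and 0.31, adjusted p = 0.116 and 0.289, exact permutation test), and the last was −0.06. By the tests of single genes, Cdkn1a was lowest in zone I, Cdkn1b was highest in zone I and Cdkn1c was lowest in zone III.

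Cdkn2c encodes p18, the INK4 inhibitor among these genes (1416868_at). It read 495, 583, 451 and 535 in zone I, 284, 417, 245 and 260 in zone II and 277, 294, 241 and 233 in zone III. All zone I arrays were above those of zones II and III, which overlapped, and array B was the highest of zone II. Cdkn2c was 1.74-fold lower in zone II than in zone I (log2 difference −0.80 ± 0.17 SE; limma, adjusted p = 0.00246) and 1.97-fold lower in zone III than in zone I (−0.98 ± 0.17, adjusted p = 4.9e-04). The difference between zones III and II was −0.18 ± 0.17 (adjusted p = 0.401), and 0.37 with ribosomal centring.

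The promoters of Cdkn1a and Cdkn2c are shown because these inhibitors moved in opposite directions between zones II and I. Each line gives the 250 bases before a RefSeq transcription start, on the strand of the gene (GRCm38.p6), with the GC box GGGCGG on either strand in capitals. The Cdkn1a window is chr17:29093519-29093768 on the plus strand, with GC boxes that begin 104 and 46 bases before the start, and the Cdkn2c window is chr4:109666757-109667006 on the minus strand, with GC boxes at 95, 51 and 40 bases before the start.
Cdkn1a: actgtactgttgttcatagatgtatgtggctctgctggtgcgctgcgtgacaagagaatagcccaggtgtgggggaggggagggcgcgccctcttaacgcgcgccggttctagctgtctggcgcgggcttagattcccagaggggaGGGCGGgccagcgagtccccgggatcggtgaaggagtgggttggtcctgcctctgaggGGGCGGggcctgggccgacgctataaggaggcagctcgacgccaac
Cdkn2c: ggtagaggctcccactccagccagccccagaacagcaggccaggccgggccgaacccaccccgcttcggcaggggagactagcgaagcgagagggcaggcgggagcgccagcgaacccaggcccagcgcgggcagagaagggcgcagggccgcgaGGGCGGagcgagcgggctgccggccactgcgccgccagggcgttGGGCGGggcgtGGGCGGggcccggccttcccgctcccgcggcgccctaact
Each of these 2 genes has a further start in the table, whose window holds no GC box. The GC box was found in 32.7% of 32851 promoter windows of this length, the AP-1 motif TGANTCA in 6.75% and the RUNX motif TGTGGT in 14% of them, each on either strand. Neither the AP-1 nor the RUNX letters are in the 9 windows of the 6 genes that the table holds, which are Ccnd3, Cdkn1a, Cdkn1b, Cdkn2c, Rbl1 and Rbl2. Such matches are a description of the letters and not of bound sites.

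The retinoblastoma family split. Rb1, the founding member, whose product binds E2F factors that activate transcription (1417850_at), read 208, 172, 167 and 160 in zone I, 513, 440.4, 553 and 568 in zone II and 439, 447, 426 and 426 in zone III. Zone I was below all arrays of the other zones, which overlapped. Rb1 was 2.93-fold higher in zone II than in zone I (log2 difference 1.55 ± 0.12 SE; limma, adjusted p = 1.1e-06) and 2.47-fold higher in zone III than in zone I (1.31 ± 0.12, adjusted p = 2.7e-06). It stood 204th from the top of 11808 genes between zones II and I. Its difference between zones III and II was −0.25 ± 0.12 (adjusted p = 0.0989), a fall that passed without array B of zone II (−0.32, adjusted p = 0.0379), with quantile normalization (−0.29, adjusted p = 0.0466) and with median centring (−0.49, adjusted p = 0.00315), while ribosomal centring gave 0.30.

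Rbl1 and Rbl2 went the other way between zones II and I. Rbl1 encodes p107, which binds repressive E2F factors and is itself known as an E2F target (1424156_at). It read 266, 384, 292 and 299 in zone I, 181, 158, 202 and 230.0 in zone II and 252, 319, 288 and 234 in zone III, so that zone II was below both other zones, which overlapped. Rbl1 was 1.61-fold lower in zone II than in zone I (log2 difference −0.69 ± 0.16 SE; limma, adjusted p = 0.0043) and 1.42-fold higher in zone III than in zone II (0.51 ± 0.16, adjusted p = 0.0165). The rise in zone III was lost without array B of zone II (0.42, adjusted p = 0.0509), without array B of zone III (0.43, adjusted p = 0.0539), with quantile normalization (0.31, adjusted p = 0.0964) and with median centring (0.27, adjusted p = 0.151). The other tested probe set of Rbl1 gave −0.29 between zones II and I and −0.04 between zones III and II, and neither passed.

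Rbl2 encodes p130, the relative that is most abundant in resting cells and a part of the DREAM repressor complex (1425981_a_at). Its signals were low, at 76.8, 88.8, 76.4 and 89.9 in zone I, 47.0, 32.9, 40.8 and 52.3 in zone II and 63.5, 61.6, 65.4 and 67.3 in zone III. The zones did not overlap, and 3 of the 4 zone II arrays were under 50. The zone II mean of 43.2 lay under the minimum of 50, so the gene was tested only through the zones where it is higher, and the size of the folds against zone II is uncertain. Rbl2 was 1.94-fold lower in zone II than in zone I (log2 difference −0.96 ± 0.14 SE; limma, adjusted p = 2.1e-04) and 1.51-fold higher in zone III than in zone II (0.60 ± 0.14, adjusted p = 0.00342). With 16 added to each signal these differences were −0.75 and 0.45, and the rise in zone III no longer passed with quantile normalization (0.35, adjusted p = 0.0841). The difference between zones III and I was −0.36 ± 0.14 and did not pass (adjusted p = 0.0575), though it passed as a fall under 7 of 23 alternatives.

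The promoter window of Rbl1 is shown for its match to an E2F motif. It lies at chr2:157204535-157204784 on the minus strand (GRCm38.p6, RefSeq), and capitals mark the E2F letters TTTCGCGC, which begin 18 bases before the start, and a GC box on the other strand.
Rbl1: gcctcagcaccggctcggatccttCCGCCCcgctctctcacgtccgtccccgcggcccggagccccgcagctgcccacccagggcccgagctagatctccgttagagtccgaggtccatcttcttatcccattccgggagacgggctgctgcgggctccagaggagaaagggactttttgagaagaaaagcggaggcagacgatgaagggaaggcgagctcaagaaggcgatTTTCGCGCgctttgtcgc
The motif was searched as TTTCCCGC, TTTCGCGC, TTTGCCGC or TTTGGCGC on either strand and is in 1.86% of the 32851 windows, with no overlap with the GC box letters here. None of the other windows of the 6 genes holds it.

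Within arrays, the log2 ratio of Rb1 over Rbl1 was 2.24 higher in zone II than in zone I, and the ratio of Rb1 over Rbl2 was 2.51 higher. These ratios differed between zones III and II by −0.76 and −0.84, and between zones III and I by 1.49 and 1.67, with no overlap of arrays. They restate the rise of Rb1 and the falls of its relatives on the same arrays. The ratio of Rbl1 over Rbl2 passed in no comparison, with differences of 0.27, −0.09 and 0.18.

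**Figure D3:**
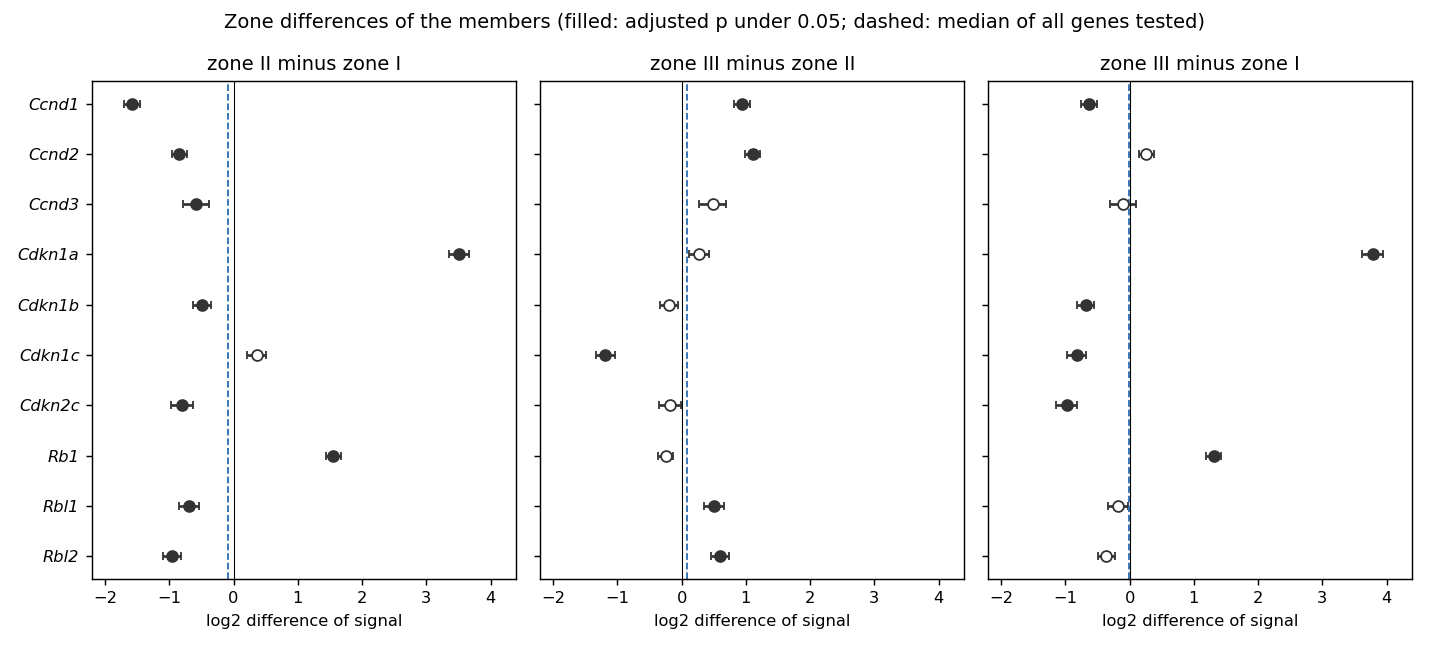
Log2 difference of signal (horizontal axis, ± SE from limma, 4 arrays a zone) for the 10 genes in each comparison; filled points have an adjusted p under 0.05 and the dashed line is the median of all 11808 genes. Cdkn1a and Rb1 lie to the right of 0 between zones II and I and between zones III and I, and Cdkn1c is the only filled point to the left of 0 between zones III and II.

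The arrays passed through 3 fluidics runs of 4 arrays, each with all 3 zones, and the differences were also taken within each run, where a zone has 1 or 2 arrays. Between zones II and I the 9 genes that passed kept their direction in all 3 runs, with Cdkn1a at 3.14, 3.67 and 4.05, Rb1 at 1.44, 1.56 and 1.83, Ccnd1 at −1.68, −1.68 and −1.25 and Ccnd2 at −0.84, −1.10 and −0.51. Between zones III and II the 5 genes that passed did so too, with Ccnd1 at 1.15, 1.04 and 0.65, Ccnd2 at 1.21, 1.07 and 1.00, Cdkn1c at −1.0, −1.62 and −1.0, Rbl1 at 0.48, 0.84 and 0.18 and Rbl2 at 0.44, 0.75 and 0.34. Between zones III and I the 6 genes that passed also held their direction within each run. With the run as a block the counts were 2 rose and 7 fell between zones II and I, 5 rose and 1 fell between zones III and II, and 2 rose and 5 fell between zones III and I. The shares of all genes called with this block are not given here.

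For each gene, the 3 genes whose log2 signal was most alike over the 12 arrays were looked up, as Pearson's r, with no test because the arrays share the 3 zones. Cdkn1a was most like Col10a1 (r = 0.992), the collagen of hypertrophic cartilage, followed by Raph1 and Lipi. Rb1 was most like Aldh1a3 (0.987), a retinaldehyde dehydrogenase, Sgms2, a sphingomyelin synthase, and Mef2c (0.985), a transcription factor of hypertrophic chondrocytes. Cdkn1c was most like Itm2a (0.989), Cd24a and Col9a1 (0.984), a collagen of cartilage fibrils. The nearest genes to Ccnd1 were Fem1c (0.984), Thrap3 and Limch1, those to Ccnd2 were Litaf (0.981), Zeb1 and Pkp4, and those to Ccnd3 were Lcmt2 (0.964), Fam3a and AI837181. Cdkn1b and Cdkn2c were among each other's nearest 3 genes (0.958), with Tfam and Ngly1 for Cdkn1b and Pola1, a subunit of DNA polymerase alpha, and Rbm48 for Cdkn2c. Rbl1 was nearest to Zbtb14 (0.953), Ctcf and Zfp592, and Rbl2 to Elf2 (0.964), Cep68 and Thrap3, a gene it shares with Ccnd1.

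Other genes of the pathway were taken from lists. Of 19 partners of the G1 to S transition 18 were tested, and Cdkn2a, which had mean signals of 16.7 to 17.9, was not. In zone II against zone I, 1 rose and 11 fell, where 16% and 25.4% of all genes did, with a median difference of −0.41 against −0.09 for all genes. With median centring 3 rose and 6 fell, where 2999 and 2115 of the 11808 genes did. Without the arrays lettered A 7 fell, in a smaller fit whose share of all genes is not given here. Cdk6, a kinase partner of the D cyclins, was the gene that rose, by 1.14 ± 0.18 SE (limma, adjusted p = 4.0e-04), with signals of 364 to 612 in zone II and 187 to 272 in zone I. Cdk4, the other kinase partner, gave 0.01. The largest falls were those of E2f7 (−1.36), E2f3 (−1.02), E2f2 (−0.96) and E2f8 (−0.91), which encode E2F factors that activate (E2f2 and E2f3) or repress (E2f7 and E2f8) transcription.

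In zone III against zone II, 6 of the 18 partners rose and 3 fell (median −0.08), shares near the 30.8% and 22.7% of all genes. Cdkn2b, which encodes the INK4 inhibitor p15, rose by 3.82 ± 0.45 SE (limma, adjusted p = 1.9e-05), with signals of 440.1 to 529 in zone III and 22.1 to 56.7 in zone II, most of them under 50. Tfdp2, a DNA-binding partner of E2F factors (1.16), E2f3 (1.09) and E2f7 (0.82) also rose, while Ccne2, an E cyclin gene (−0.89), Cks1b (−0.40) and Tfdp1 (−0.32) fell. In zone III against zone I, 3 rose (Cdkn2b, Cdk6 by 1.04 and Tfdp2 by 0.47) and 8 fell, beside 21.6% and 21.7% of all genes, led by Ccne2 (−1.39), E2f8 (−0.80), Cdkn2d (−0.71) and Ccne1 (−0.67), with a median of −0.36. Cdkn2b read 5.15 to 26.4 in zone I, with mean signals under 50 in zones I and II, so it was tested only through zone III and its fitted differences have no settled size. Between zones III and II, 4 rose and 7 fell with median centring, where 2646 and 4053 of the 11808 genes did. With ribosomal centring 10 rose and none fell, where 7041 and 755 genes did. Between zones III and I, 2 fell with ribosomal centring, where 1368 genes did.

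Of the 8 partners of the MuvB and DREAM complexes, which carry the repression by p107 and p130, all were tested. Between zones II and I none rose and Lin54 (−0.73) and Lin9 (−0.66), subunits of the MuvB core, fell, 2 of 8 beside 25.4% of all genes. E2f5, an E2F factor that binds p130, fell in zone III against zone II (−0.45) and against zone I (−0.65), and no other gene of the list passed in these comparisons. The medians were −0.05, 0.07 and −0.07 in the 3 comparisons, with signs that turned under other scalings (0.13 and −0.18 with median centring in the first 2, and 0.13 with ribosomal centring in the last). With ribosomal centring 5 rose between zones III and II, where 7041 of the 11808 genes did, and none passed between zones III and I.

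Of 22 E2F target and proliferation genes, 20 were tested and the others were not analysed here. Between zones II and I none rose and 15 fell, beside 16% and 25.4% of all genes, with a median of −0.55. The largest falls were those of Tk1, a thymidine kinase (−1.32 ± 0.17 SE; limma, adjusted p = 6.6e-05), Cdt1, a replication licensing factor (−1.05 ± 0.18), Mki67, a marker of cycling cells (−0.72), and Top2a, a topoisomerase (−0.71). With median centring 7 fell, where 2115 of the 11808 genes did. Without the arrays lettered A 9 fell, and the share of all genes in that smaller fit is not given here. Between zones III and II, 4 rose (Cdt1 by 1.12, Mcm4 by 0.60, Tyms by 0.58 and Mcm2 by 0.49) and 4 fell (Cdk1 at −0.90, Rrm1 at −0.49, Pcna at −0.48 and Top2a at −0.38), with a median of −0.02, where 30.8% and 22.7% of all genes rose and fell. Tyms had mean signals of 48.0, 35.8 and 52.8 in zones I, II and III, so it was tested only through the zone where it is highest. The counts that rose and fell were 1 and 9 with median centring, where 2646 and 4053 of the 11808 genes did. With ribosomal centring they were 12 and none, where 7041 and 755 genes did. In zone III against zone I none rose and 14 fell, beside 21.6% and 21.7% of all genes, with a median of −0.63. Top2a (−1.09), Tk1 (−1.03), Cdk1 (−0.99) and Ccna2 (−0.98) led the falls. With ribosomal centring 8 fell, where 1368 of the 11808 genes did.

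Of 15 p53 target genes, given because Cdkn1a is a p53 target, 13 were tested; for Bax no probe set carries that symbol by itself, and the signals of Tnfrsf10b were too low. Between zones II and I, 5 rose and 2 fell (median 0.28), beside 16% and 25.4% of all genes. Perp, a desmosome protein (2.43 ± 0.20 SE; limma, adjusted p = 2.2e-06), Ccng1, which encodes cyclin G1 (0.86 ± 0.10), Bbc3 (0.66) and Aen (0.62) had the largest rises, and Zmat3 (−0.75) and Phlda3 (−0.51) fell. With ribosomal centring 2 rose and 3 fell, where 567 and 5174 of the 11808 genes did, and the median was −0.07. The zone I mean of Perp was 47.3, under 50, so it was tested only through the zones where it is higher. Between zones III and II, 8 rose and 2 fell (median 0.93), beside 30.8% and 22.7%, led by the kinase gene Plk2 (3.33), Gadd45a (1.88), whose signals in zones I and II were under 50, Trp53inp1 (1.59) and Zmat3 (1.54), and the 2 that fell were Mdm2 (−0.55) and Ccng1 (−0.45). In zone III against zone I, 10 rose and none fell (median 0.81), beside 21.6% and 21.7%. Gadd45a and Sesn2, which rose in both comparisons with zone III, reached a mean of 50 in zone III alone. Both were thus tested only through the zone where they are higher.

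**Figure D4:**
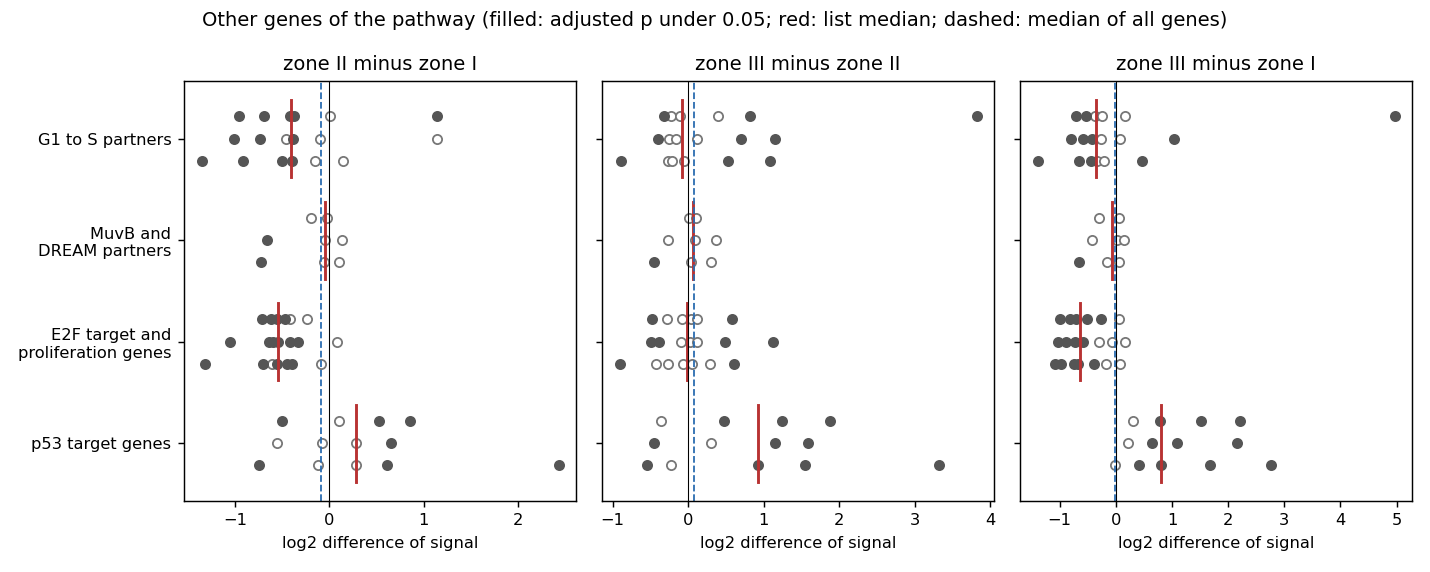
Log2 difference of signal (horizontal axis) for each tested gene of 4 lists (18, 8, 20 and 13 genes) in the 3 comparisons; filled points have an adjusted p under 0.05, the red line is the median of the list and the dashed line the median of all genes. Most E2F target and proliferation genes lie to the left of 0 between zones II and I, where 15 fell, and between zones III and I, where 14 fell.

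Markers of some other cell types moved with the D cyclins at 1 or both steps. Of all genes tested, 16% rose and 25.4% fell between zones II and I. The shares were 30.8% and 22.7% between zones III and II, and 21.6% and 21.7% between zones III and I. The summed signal of the 3 D cyclins was 3056 to 4089 in zone I, 1818 to 2118 in zone II and 3552 to 4058 in zone III. All 9 endothelial markers fell in zone II against zone I and rose in zone III against zone II, and their sum was 807 to 1412 in zone I, 285 to 604 in zone II and 2802 to 3162 in zone III. On zone II arrays B to D this sum over 9 genes was at most 362, so some of these markers were under 50 there. In each list, markers with a mean under 50 in a zone were tested only through the zones where they are higher. Of 8 perichondrium and fibrous tissue markers 7 fell in zone II against zone I, and 4 rose and 2 fell in zone III against zone II, with sums of 12482 to 16132, 5393 to 8521 and 8815 to 11013 in zones I, II and III. All 8 osteoclast markers rose in zone III against zone II, to a sum of 12732 to 15084 in zone III against 677 to 1678 in zone II. All 6 tested macrophage markers also rose, and the sum of the 8 listed was 4409 to 5278 in zone III against 646 to 992 in zone II. Between zones II and I, where the D cyclins fell, 2 osteoclast markers rose, 1 fell and 5 did not pass (median 0.47), and 2 of the 6 macrophage markers fell (median −0.51), with sums of 687 to 785 and 1098 to 1886 in zone I. In zone III against zone I, where Ccnd1 fell, 7 of the 9 endothelial markers and all 8 osteoclast markers rose. The part of these cells in the differences of the D cyclins, Rbl1 and Rbl2 was not tested.

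Some cartilage and bone markers moved with Cdkn1a, Rb1 or Cdkn1c, while Cdkn1b and Cdkn2c fell in zone II against zone I, where these markers rose or did not pass. Of 6 prehypertrophic and hypertrophic markers all rose in zone II against zone I, as Cdkn1a and Rb1 did, with a sum of 12115 to 13415 in zone II against 1168 to 1336 in zone I, and it was 7537 to 8995 in zone III. All 8 chondrocyte markers fell in zone III against zone II, as Cdkn1c did, with a sum of 9636 to 12358 in zone III against 30979 to 34155 in zone II, and 3 of the 8 rose in zone II against zone I, where the sum was 19690 to 25483 in zone I. Of 7 tested osteoblast markers 6 rose in zone II against zone I, also as Cdkn1a and Rb1 did (median 2.66), and 6 rose in zone III against zone II, with sums of 1208 to 1768, 4260 to 6678 and 12431 to 13701 in zones I, II and III. Markers of these lists with a mean under 50 in a zone were likewise tested only through the zones where they are higher. The part of these cells in the values of the inhibitors and Rb1 was not tested. Of all genes, 16% rose and 25.4% fell between zones II and I, and 30.8% and 22.7% between zones III and II.

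Some arrays stand apart in blood and muscle markers. The 6 named erythroid markers summed to 3279 to 3734 on the 3 arrays lettered A and to 527 to 1779 on the other 9, and 8 skeletal muscle markers summed to 1333 on array A of zone I and to 200.3 to 531 on the others. Without the arrays lettered A, a setting chosen after the data were seen, the counts of the 10 genes were 2 rose and 6 fell between zones II and I, 3 rose and 1 fell between zones III and II, and 2 rose and 4 fell between zones III and I. The share of all genes called in this smaller fit is not given here, so these counts have no background beside them. Ccnd3 lost its fall (−0.72, adjusted p = 0.051 from limma) and Rbl1 its rise in zone III against zone II (0.52, adjusted p = 0.0554). The 3'/5' ratio of the Gapdh control was 1.98 to 2.28 in zone III and 1.25 to 1.76 in zones I and II, and that of actin ran the other way, at 1.70 to 2.02 in zone III and 2.09 to 3.23 in zones I and II.

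**Figure D5:**
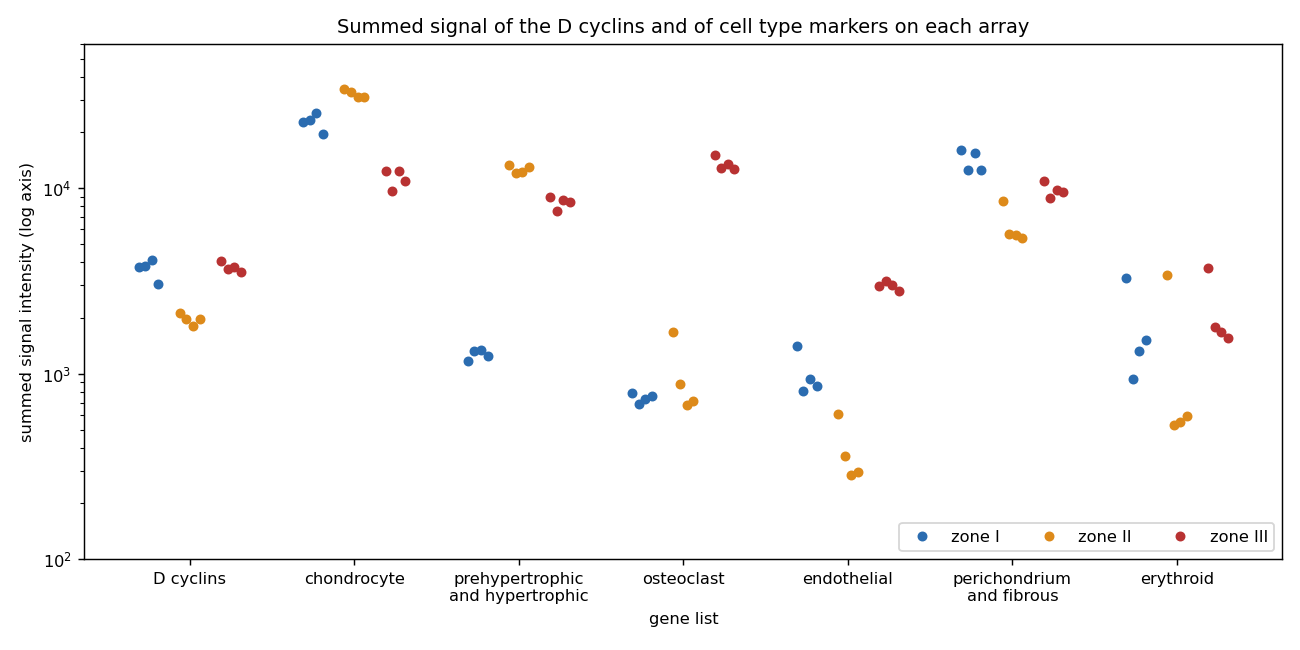
Summed signal intensity (vertical log axis) of the 3 D cyclins and of marker lists for 6 kinds of cells on each array of zones I (blue), II (orange) and III (red), arrays A to D from left to right within a zone. The D cyclin, endothelial and perichondrium sums are lowest in zone II, and in each zone the leftmost erythroid point, array A, is the highest.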

How the data were processed

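The values are linear signal intensities deposited by the authors, 1 per probe set and array, in which the mean after trimming 2% of values at each end is 150.0 on every array. The submitters' processing notes name RMA, and the study's methods name GCRMA in GeneSpring GX and, in parallel, RMA in RMAExpress; which of these, if any, gave the linear deposited values with their common trimmed mean is not settled. No value was missing or at or below 0. The 12 columns were matched to zones through the sample titles, and 0 columns were left over. Genes were named through the 34945 probe sets with 1 symbol; 932 have several and 9160 none.

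The log2 of each signal was used as it stands, and the 22255 probe sets whose mean signal reached 50 in any zone were tested, the 64 controls left out, with lmFit and eBayes of limma 3.58.1 in R 4.3.3 (Python 3.11.15 for the rest), on all 12 arrays. A difference is later zone minus earlier zone. The fit was tested on simulated data. The members and lists were chosen with earlier results of these data known. All 10 members are named, with up to 4 genes per list and direction by size among those that passed. The 3 genes most correlated with each member are named too. Cdk4, Sesn2 and all genes of counts up to 5 were named after their values were seen. The letters A to D were not used as pairs, since the labels do not link them and not every pair of arrays with 1 letter correlated above 0.1. Alternatives were other filters, scalings, blocks and fits, a median over each gene's probe sets, and leaving out each array. Protein sequences were not used here.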

Additional observations from a re-analysis of the deposited data

Results flagged for a closer look

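For Cdkn1a in zone II, array D read 2011 against 1481 to 1556 on the other 3 arrays, a gap of 0.859 of the whole range of the zone. It was the only 1 of 30 groups of 4 arrays (10 genes in 3 zones) in which an array stood that far from the rest, and chance alone gives about 1 such group in 20. All 4 arrays of zone II were above the 121 to 171 of zone I.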

How the results depend on the processing

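Of the 30 differences of the 10 genes 20 passed, and 15 of these passed under each of up to 24 alternatives, while 5 were lost under at least 1: Ccnd3 (lost under 12 of 24) and Cdkn1b between zones II and I, Rbl1 and Rbl2 between zones III and II, and Ccnd1 between zones III and I, which gave −0.43 with ribosomal centring (limma, adjusted p = 0.0614). The number of the 10 genes that fell between zones III and II was 1, and 3 with quantile normalization and 3 with median centring, where 3063 and 4053 of the 11808 genes did. Leaving out 1 array at a time, it was 1 to 2 (2 without array B of zone II), and the other counts were 2 to 3 rose and 6 to 7 fell between zones II and I, 3 to 5 rose between zones III and II, and 2 rose and 4 to 5 fell between zones III and I. The shares of all genes called in these smaller fits are not given here. With ribosomal centring the sign turned between zones III and II for Cdkn1b (0.36), Cdkn2c (0.37) and Rb1 (0.30), and between zones III and I for Ccnd3 (0.10) and Rbl1 (0.026); Ccnd3 also turned there with the median of its probe sets (0.23). None of these 6 had passed or passed then, and the cause was not tested. With quantile normalization, a setting chosen for the ratios after the data were seen, 4 of the 27 ratio comparisons newly passed, 2 were lost and Cdkn1b over Cdkn1c between zones III and I turned (−0.058). With the replicate block by letter, Ccnd3 between zones III and II passed (0.48, limma, adjusted p = 0.0444), so that 5 genes rose there, and no other call changed. Of 12 arrays, 7 correlated best with an array of their own letter. The correlation of deviations was above 0.1 for 8 of 12 pairs with 1 letter (median 0.149), all 3 pairs of A among them. It was above 0.1 for 6 of 36 other pairs (median −0.051). This is only a hint from the data, since the zones were pooled by litter but the labels do not tie a letter to a litter. Signals near 50, as for Rbl2 in zone II, limit what a fold can show.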
